A study of Homo sapiens with 35 samples.

Results

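The RNA of TWEAK-treated *NFKB2* KD cells was compared with that of untreated control cells, which asks what TWEAK-treated cells express when *NFKB2* has been targeted. The comparison comprised 6 of the 12 RNA-seq libraries and 6 of the 35 samples of the series, and covered the 16879 genes that passed an expression filter, of 62649 genes in the count table. All cells were U-87 MG, an established human glioblastoma line. The untreated group (n = 3) was the CRISPR control line, transduced with the same type of lentiviral Cas9 vector and left without TWEAK. The KD group (n = 3) came from cells transduced with guide RNA against *NFKB2* and selected with antibiotic, for which the paper describes no cloning of single cells. It received TWEAK at 10 ng/ml for 48 h. Starvation in reduced-serum medium lasted 8 h in the labels of every group. TWEAK-treated CRISPR control cells (n = 3) were used for side-by-side values. There were no untreated *NFKB2* KD libraries, so in the KD group the genotype and the treatment cannot be told apart: a difference from untreated control cells can come from TWEAK, from the targeting of *NFKB2*, or from both.

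TWEAK belongs to the TNF superfamily of cytokines. Its receptor Fn14, encoded by *TNFRSF12A*, recruits TRAF proteins and the ubiquitin ligases cIAP1 and cIAP2, and this stops the turnover of the kinase NIK. NIK and IKKα then drive processing of p100, the product of *NFKB2*, to p52, which binds κB sites as a dimer with RelB, and this is the non-canonical NF-κB pathway. The canonical pathway acts through p65 and p50 after the loss of IκBα. *NFKB2*, *RELB*, *BIRC3*, *TRAF1* and the IκB genes are themselves known NF-κB target genes. In glioblastoma, NF-κB activity is associated with the mesenchymal state and with invasion.

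*NFKB2* (GENCODE 44 on hg38, chr10:102394110-102402524, plus strand) had no less mRNA in the KD libraries than in untreated cells. Its level was 49.6, 54.5 and 66.6 CPM (normalised read count relative to the library's total, with TMM factors) in untreated control replicates 1 to 3. The TWEAK-treated KD libraries had 75.6, 92.6 and 104.9 CPM, and the TWEAK-treated control libraries 235.4, 288.5 and 346.1 CPM. All KD libraries thus lay above all untreated libraries and below all TWEAK-treated control libraries. Against untreated cells the KD differed by a log2 fold change of 0.68 ± 0.17 (SE), which did not pass the test (edgeR quasi-likelihood F-test, adjusted p = 0.134). The call depended on the processing, with an adjusted p between 0.00268 and 0.0415 under 5 alternatives, DESeq2 (0.0209) among them. Against TWEAK-treated control cells *NFKB2* was lower by 3.19-fold in the KD (adjusted p = 0.00339), at 31.4% of their mean. The data therefore describe TWEAK-treated cells with less *NFKB2* mRNA than TWEAK gives in control cells, and not cells with less than at rest. CRISPR cutting need not lower mRNA, and p100 and p52 protein were not measured in these data. The paper reports that the lowering of *NFKB2* expression in targeted U-87 MG cells was checked by western blot.

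Total counts were between 28384201 and 36033520 in the 6 libraries. The first 2 principal components of log2 CPM held 28.8% and 22.7% of the variance. Untreated control replicate 3 stood apart from its group on the second, and KD replicate 2 from its group on the first. On the second component, untreated replicates 1 and 2 lay at 32.3 and 31.9 and replicate 3 at −25.7. This component also divided the other groups, with KD replicates 1 to 3 at 17.6, −20.6 and −12. TWEAK-treated control replicates 1 to 3 lay at 33.5, −11.0 and −25.6. Libraries of the KD and untreated groups were thus not evenly spread along it, and the source of this component was not tested. On the first component, KD replicates 1 and 3 lay at 10.6 and −4.52 and replicate 2 at −30.7, close to the untreated libraries (−42.8 to −27.6). Vimentin (*VIM*, 9267 to 16380 CPM before TMM scaling over the 9 control and *NFKB2* KD libraries) and *CD44* (1120 to 2327 CPM) were high. *FN1* had 403 to 2857, *SPARC* 366.4 to 995.7 and *NES* 74.92 to 147.8 CPM. The glial markers *GFAP*, *S100B*, *SOX2* and *AQP4* were at most 0.377 CPM and *OLIG2* had 0.983 to 1.79 CPM. The leukocyte markers *PTPRC* and *CD3E* were at most 0.0941 CPM. Endothelial *PECAM1* and *VWF* were detected at 0.842 to 1.61 and 1.09 to 4.01 CPM, and epithelial *EPCAM* at 1.23 to 2.08 CPM. Epithelial *CDH1* and the hepatocyte marker *ALB* were at most 0.126 and 0.141 CPM.

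In TWEAK-treated *NFKB2* KD cells 69 genes were higher and 33 lower than in untreated control cells at an adjusted p under 0.05, which is 0.409% and 0.196% of the genes tested. All 102 had groups that did not overlap, as did 898 genes with higher and 1004 with lower KD values among all 16879 genes tested. The median log2 fold change was 1.26 for the higher genes (0.63 to 6.70) and −0.85 for the lower genes (−1.37 to −0.58), against −0.0045 over all genes tested. Of the higher genes, 62 were protein-coding and 43 rose by at least 1 on the log2 scale, and 23 had a mean under 1 CPM in untreated cells. Among the lower genes, 9 fell by at least 1 on the log2 scale. TWEAK in control cells, tested against the same untreated libraries, gave 261 higher and 259 lower genes (1.55% and 1.53%). The direct comparison of TWEAK-treated KD with TWEAK-treated control cells, which shares the KD libraries, gave 1 higher and 4 lower genes (0.00592% and 0.0237%).

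These counts were sensitive to the libraries and to the fit. When only the 6 libraries were fitted, without the spread of the other 2 groups, 18 genes were higher and 0 lower at an adjusted p under 0.05, compared with 702 higher and 743 lower at an unadjusted p under 0.05 in the fit of 12 libraries, and DESeq2 gave 172 higher and 136 lower. Without KD replicate 2 there were 97 higher and 149 lower genes, without KD replicate 1 there were 52 and 12, and without KD replicate 3 there were 41 and 9. Leaving out untreated replicate 1, 2 or 3 gave 32, 34 or 65 higher and 6, 5 or 42 lower genes, and leaving out untreated replicate 3 together with KD replicate 2, an alternative chosen after seeing the data, gave 108 and 143. Genes of higher GC content were more often among the higher genes, with 8, 14, 24 and 23 of them in 4 equal groups of genes from low to high GC content and 11, 13, 6 and 3 of the lower genes. After correction of each library for GC content and exonic length the counts were 136 and 92, and 98 of the 102 genes were called in both fits.

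**Figure D1:**
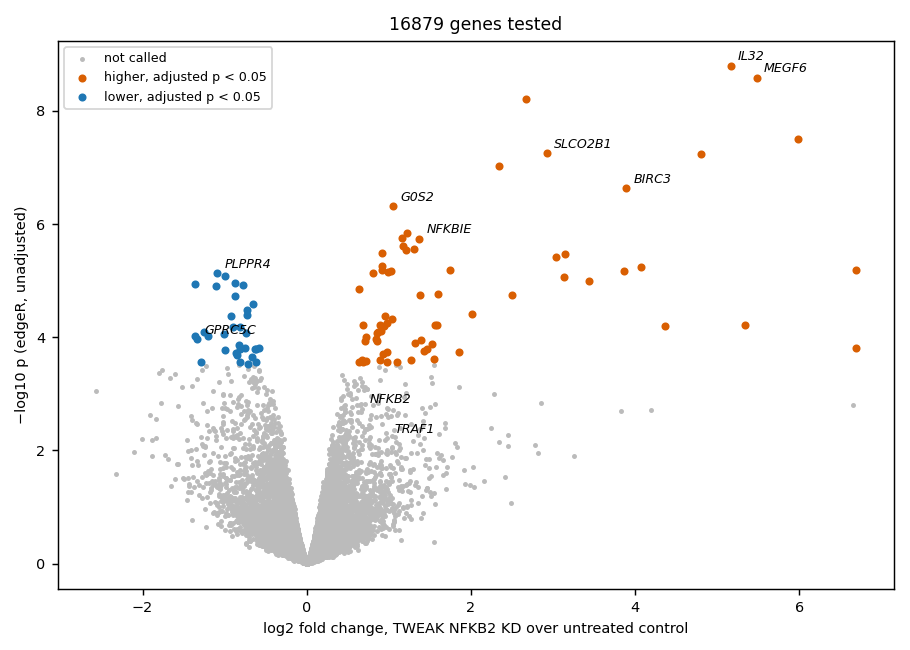
Log2 fold change of TWEAK-treated *NFKB2* KD over untreated control cells (x axis) against −log10 of the unadjusted edgeR p (y axis) for the 16879 genes tested, with the 69 higher genes in orange, the 33 lower genes in blue and the others in grey. The higher genes reach a log2 fold change of 6.70, the lower genes −1.37, and *NFKB2* and *TRAF1* lie among the grey points.

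The upstream part of the pathway was higher in the KD than in untreated cells at 4 of 13 tested members, the cIAP2 gene *BIRC3*, the NIK gene *MAP3K14*, and *TRAF2* and *TRAF3*, whose products hold NIK in its degradation complex, and 0 were lower. The median log2 fold change of the 13 members was 0.30. In control cells TWEAK gave 6 higher members and a median of 0.31. For this and the gene lists below, the share of all genes tested that was called in the KD was 0.409% higher and 0.196% lower.

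*BIRC3* (chr11:102317484-102339403, plus strand) had the largest change among these. Its level was 4.52, 3.53 and 1.97 CPM in untreated cells, 166.1, 153.1 and 202.4 CPM in TWEAK-treated control cells, and 56.9, 26.3 and 65.1 CPM in TWEAK-treated KD cells. Each KD library exceeded every untreated library and stayed below every TWEAK-treated control library, and KD replicate 2 was the lowest of its group. The rise over untreated cells was 3.89 ± 0.39 (log2, SE; adjusted p = 0.000488) and was called in all 15 alternative fits. The direct comparison of KD with TWEAK-treated control gave −1.81 ± 0.34, which did not pass the adjustment (adjusted p = 0.194).

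*MAP3K14* had 7.54, 7.07 and 13.0 CPM in untreated cells and 22.8, 19.9 and 38.3 CPM in KD cells, a rise of 1.55 ± 0.31 (adjusted p = 0.0456). TWEAK-treated control cells had 18.9, 32.0 and 31.2 CPM, which overlapped with the KD values. *TRAF2* had 16.5, 16.7 and 16.4 CPM in untreated cells and 25.3, 25.8 and 25.8 CPM in KD cells, a small rise of 0.63 ± 0.09 over a very narrow spread (adjusted p = 0.00671). *TRAF3* rose from a mean of 42.5 ± 6.6 (SD, n = 3) to 76.8 ± 2.5 CPM (log2 0.85 ± 0.15 SE, adjusted p = 0.0232). *BIRC2*, which encodes cIAP1, did not pass, and its KD values of 60.2, 26.4 and 55.2 CPM included 1 library within the untreated range of 25.0 to 33.2 CPM. The receptor gene *TNFRSF12A* had a log2 fold change of 0.30 ± 0.10 (adjusted p = 0.291). The IKK genes *CHUK*, *IKBKB* and *IKBKG* lay between −0.08 and 0.05.

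*TRAF1* was the member whose direct difference between KD and TWEAK-treated control cells passed the test, while *BIRC3*, *BIRC2* and *TRAF2* also had KD values below all TWEAK-treated control values. It had 10.2, 11.0 and 13.6 CPM in untreated, 64.2, 83.1 and 143.9 CPM in TWEAK-treated control and 19.8, 19.2 and 29.9 CPM in KD cells. The KD values lay above the untreated values without overlap, yet the log2 fold change of 0.98 ± 0.30 did not pass (adjusted p = 0.243). Relative to TWEAK-treated control cells the KD was lower by 4.24-fold (adjusted p = 0.0392), a call that was lost in 7 of the alternative fits, with 6 libraries and without any 1 of the KD replicates among them.

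None of the 5 NF-κB subunit genes passed the test against untreated cells (0 higher, 0 lower with edgeR, against 2 at an unadjusted p under 0.05, and *NFKB2* and *RELB* with DESeq2), and 2 of them rose with TWEAK in control cells. *RELB*, the partner of p52, had 18.6, 22.4 and 24.9 CPM in untreated cells and 29.3, 38.6 and 36.9 CPM in KD cells. These groups did not overlap, and the difference of 0.67 ± 0.15 had an adjusted p of 0.0829. In TWEAK-treated control cells *RELB* had 49.3, 56.7 and 62.8 CPM. The p105 gene *NFKB1*, the p65 gene *RELA* and *REL* had log2 fold changes of 0.26 ± 0.13, 0.24 ± 0.21 and 0.05 ± 0.33.

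Of 11 genes for IκB proteins and feedback inhibitors, 2 were higher and 0 lower in the KD (3 higher with DESeq2), with a median log2 fold change of 0.39, against 6 higher and a median of 0.56 with TWEAK in control cells. *NFKBIE*, which encodes IκBε, had 8.44, 8.33 and 6.16 CPM in untreated cells and 17.0, 23.9 and 18.3 CPM in KD cells (1.37 ± 0.17, adjusted p = 0.00257). TWEAK-treated control cells had 33.3, 35.0 and 38.1 CPM, above every KD library. *NFKBIA*, which encodes IκBα, rose from 25.2 ± 1.2 to 45.1 ± 7.3 CPM (0.84 ± 0.15, adjusted p = 0.0266). The deubiquitinase genes *TNFAIP3* and *CYLD* did not pass, with log2 fold changes of 0.61 ± 0.22 and −0.02 ± 0.15. *BCL3* had 0.39 ± 0.43, *NFKBIZ* 0.34 ± 0.22, *NFKBIB* 0.19 ± 0.11, *NFKBID* 0.18 ± 0.23, and *N4BP1* −0.01 ± 0.19. The A20-binding *TNIP1* and *TNIP2* both had a log2 fold change of 0.43, with SEs of 0.12 and 0.09 and adjusted p of 0.200 and 0.0641. *TNIP3*, which was not in this list, was higher in the KD with edgeR (2.02 ± 0.33, adjusted p = 0.01525).

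*ETS1*, which encodes a transcription factor studied with p52 in this series, had 42.0, 41.3 and 45.1 CPM in untreated and 67.1, 48.8 and 65.4 CPM in KD cells, with no overlap. The difference of 0.50 ± 0.15 did not pass (adjusted p = 0.227), and it was called without KD replicate 2 (0.63, adjusted p = 0.0437). TWEAK-treated control cells had 71.9, 73.1 and 87.6 CPM, above every KD library. *ERN1*, which encodes the unfolded protein sensor IRE1, had overlapping values of 9.76, 9.34 and 13.6 CPM in untreated and 11.4, 11.9 and 16.02 CPM in KD cells (0.27 ± 0.24, adjusted p = 0.930). TWEAK-treated control cells had 12.8, 16.95 and 25.0 CPM, which overlapped with both groups. Their rise over untreated cells did not pass with edgeR either (0.74 ± 0.24, adjusted p = 0.136), nor did the direct difference of −0.48 ± 0.24 between KD and TWEAK-treated control cells.

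**Figure D2:**
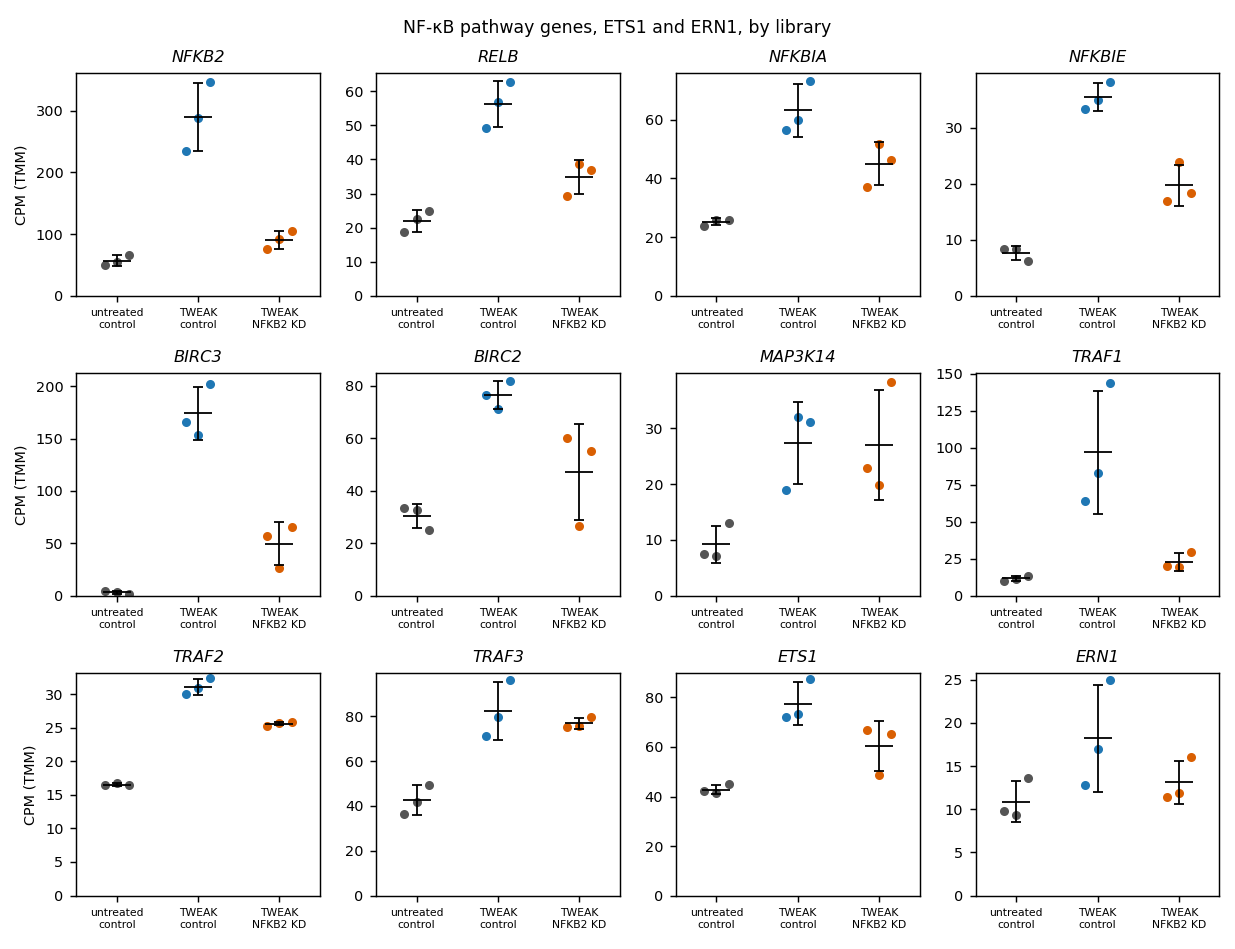
Level of 12 genes in CPM (TMM-scaled, linear axes from 0) in untreated control, TWEAK-treated control and TWEAK-treated *NFKB2* KD libraries, with 1 point per library and bars for the mean ± SD (n = 3). For *NFKB2*, *BIRC3*, *NFKBIE* and *TRAF1* the KD points lie between the other groups, while for *MAP3K14* and *TRAF3* they lie at the TWEAK-treated control points.

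Several of these genes carry p52 sites near an annotated start site, and such a start can lie inside the gene. In ChIP-seq of TWEAK-treated control cells, 2941 sites had a p52 peak in both replicates. The *TRAF2* site (chr9:136902095-136902801) was 151 bp from a start but inside the gene (chr9:136881912-136926607, plus strand). The *CHI3L2* site (chr1:111227435-111228063) also lay inside its gene (chr1:111200771-111243440, plus strand). The sites of *MAFF* and *BDKRB1* were 4444 and 3962 bp from a start, at or beyond the downstream end of the gene. The 30 bases around the match to the κB consensus sequence nearest to the p52 summit are shown for *NFKB2* and *RELB* and for the named genes that were higher in the KD and had a match (hg38, 5′ to 3′ on the strand of the match, with the match in capitals):
*NFKB2* (chr10:102394490-102394519, plus strand): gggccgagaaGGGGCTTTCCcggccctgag
*RELB* (chr19:45001323-45001352, plus strand): gtgacgcgtgGGGGTTTTCCcgttccccag
*NFKBIA* (chr14:35403953-35403982, plus strand): caggcgcccaGGGACTTTCCgcccccctcc
*TRAF2* (chr9:136902590-136902619, minus strand): gctcctctcaGGGACTTTCCagagctctca
*IL32* (chr16:3065294-3065323, plus strand): cctgtactcaGGGAGTTTCCccagccagct
*TNFRSF9* (chr1:7940894-7940923, minus strand): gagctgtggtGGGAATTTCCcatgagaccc
*PLA2G4C* (chr19:48107595-48107624, plus strand): gaccaggaaaGGGAGTCTCCctttccccgg
*MAFF* (chr22:38218759-38218788, plus strand): ggaggctggtGGGAATTCCCccacccacac
*CHI3L2* (chr1:111227614-111227643, minus strand): aagaagtccaGGGACTTCCCctggcagact
*BDKRB1* (chr14:96269152-96269181, plus strand): cccagcctcgGGGAAACTCCctgatgttgc

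The match lay within 6 bp of the summit in *NFKB2*, *RELB*, *TRAF2*, *IL32*, *PLA2G4C*, *MAFF* and *BDKRB1*, and 12, 15 and 28 bp from it in *CHI3L2*, *TNFRSF9* and *NFKBIA*. No match was found in the 200 bases around the summits at *TRAF1* and *SLCO2B1*. Such matches were common at p52 sites, being present in the 200 bases around the summit at 72.3% of 2911 sites on the assembled chromosomes.

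A p52 site in both replicates of TWEAK-treated control cells lay within 5000 bp of a start site in 17 of the 69 genes higher in the KD (24.6%, exact 95% interval 15.1 to 36.5%), in 3 of the 33 lower genes (9.09%, 1.92 to 24.3%) and in 7.28% of all genes tested. Within 1000 bp the shares were 18.8%, 9.09% and 4.94%. In untreated control cells, where both lists shared 311 sites, 0 of the 69 genes had such a site, which allows a share of up to 5.21% (upper bound of the exact 95% interval), and 0.0296% of all genes tested had one. The p52 lists of TWEAK-treated cells held 3579 and 11761 peaks and those of untreated cells 714 and 452. No p52 ChIP-seq was analysed here from *NFKB2* KD cells, so the sites describe control cells.

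Promoter sequences, 300 bases from 250 before to 50 after the start, were found in RefSeq (GRCh38.p14) for 47 of the 69 higher and 23 of the 33 lower genes. The κB consensus occurred on either strand in 17 of the 47 (36.2%) and in 2 of the 23 (8.70%), compared with 6.56% of 11404 promoters of genes tested and 5.72% of 27305 promoters in all. The 17 included *BIRC3*, with matches centred 130 and 194 bp upstream of its start, *NFKBIA* (76 bp upstream), *TRAF3* (28 bp), *IL32* (93 and 94 bp, on opposite strands), *TNFRSF9* (68 and 69 bp) and *CXCL5* (85 and 86 bp). *BIRC3*, *TRAF3* and *CXCL5* had no p52 site within 5000 bp in both lists, so a promoter match and a listed site did not always occur together. A match is a description of the sequence and not evidence of binding.

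RNA Pol II ChIP-seq was also made in TWEAK-treated *NFKB2* KD cells. A Pol II peak in both KD replicates lay within 1000 bp of a start site in 23 of the 69 higher genes (33.3%), 7 of the 33 lower genes (21.2%) and 43.9% of all genes tested. In TWEAK-treated control cells the shares were 55.1%, 27.3% and 58.1%, and in untreated control cells 34.8%, 27.3% and 46.7%. The 2 KD lists held 30310 and 11175 peaks, the TWEAK control lists 44672 and 27056 and the untreated lists 24848 and 38307, and the part of this difference in the shares was not tested.

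The rise was not limited to the NF-κB pathway itself. The 12 protein-coding genes with the largest rise in the KD, among those with at least 5 CPM in the higher group, were *IL32*, *BIRC3*, *SLCO2B1*, *IL1B*, *MAP3K14*, *TMEM132A*, *BMP6*, *PLA2G4C*, *NFKBIE*, *ZSWIM4*, *CTSS* and *KRT15*, with log2 fold changes from 5.17 to 1.21. *IL32*, a proinflammatory cytokine gene (chr16:3065297-3082192, plus strand), was barely detected in untreated cells, at 5, 3 and 7 counts or 0.174, 0.0922 and 0.219 CPM. It had 6.98, 5.74 and 5.01 CPM in KD cells (5.17 ± 0.34, adjusted p = 2.18e-05), and 1.94, 2.14 and 3.22 CPM in TWEAK-treated control cells. The KD libraries were thus the highest of the 3 groups, at 243% of the TWEAK-treated control mean, although the difference of 1.27 ± 0.24 did not pass the adjustment (adjusted p = 0.194).

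*SLCO2B1*, which encodes an organic anion transporter, had 0.660, 0.768 and 0.656 CPM in untreated and 3.42, 5.82 and 6.66 CPM in KD cells (2.92 ± 0.26, adjusted p = 0.000166). Its values in TWEAK-treated control cells, 3.55, 4.28 and 4.36 CPM, overlapped with those of the KD. *CTSS*, the gene of the protease cathepsin S, had 46.1, 45.6 and 42.7 CPM in untreated, 167, 166 and 204 CPM in TWEAK-treated control and 121, 88.0 and 104 CPM in KD cells. Here the KD lay between the other groups without overlap (1.22 ± 0.14 over untreated cells, adjusted p = 0.00243). The keratin gene *KRT15* rose from 17.5 ± 1.2 to 40.3 ± 10 CPM, and *PLA2G4C*, which encodes a cytosolic phospholipase A2, from 3.73 ± 0.45 to 9.67 ± 2.0 CPM. *TMEM132A*, *ZSWIM4*, *MAP3K14* and *BMP6* each lost their call when only 6 libraries were fitted and in 4 or 5 of the fits that left out libraries.

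**Figure D3:**
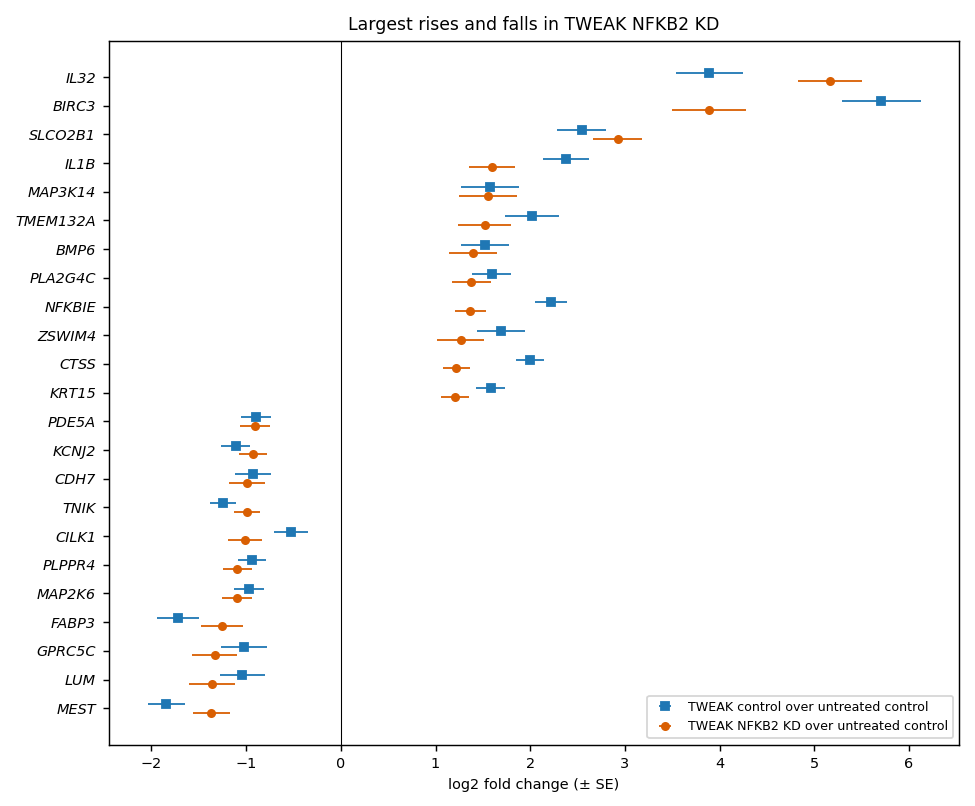
Log2 fold change (± SE) over untreated control cells of the 12 protein-coding genes with the largest rise and the 11 with the largest fall in TWEAK-treated *NFKB2* KD cells (orange circles), among called genes of at least 5 CPM in the higher group, with the value of the same genes in TWEAK-treated control cells (blue squares). Both sets of values share the untreated libraries. *BIRC3* lies at 3.89 in the KD and 5.71 in control cells, and *IL32* at 5.17 and 3.89.

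Secreted inflammatory genes were also among the genes called, in lists chosen with earlier results of these data known. Over all genes tested, 0.409% were called higher and 0.196% lower. Of 20 interleukin and colony-stimulating factor genes tested, 4 were higher (*IL32*, *IL34*, *IL1B* and *IL24*; 6 with DESeq2) and 0 lower, with a median log2 fold change of 0.40. With TWEAK in control cells 7 were higher and the median was 0.72. *IL1B* had 4.66, 4.89 and 4.25 CPM in untreated, 23.8, 18.9 and 29.0 CPM in TWEAK-treated control and 16.2, 15.4 and 10.0 CPM in KD cells (1.59 ± 0.24, adjusted p = 0.00783). *IL34*, a ligand of the CSF1 receptor, rose from 0.139, 0.215 and 0.281 CPM to 1.68, 5.44 and 2.34 CPM, with KD replicate 2 the highest. *IL24* rose from 7.33 ± 0.42 to 14.5 ± 0.76 CPM (adjusted p = 0.0193). *IL6* and *LIF* did not pass. *IL6* had 2.81, 2.73 and 2.69 CPM in untreated and 2.72, 3.10 and 3.31 CPM in KD cells, which overlapped, while TWEAK-treated control cells had 6.17, 4.88 and 6.83 CPM.

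Among 9 inflammatory chemokine genes tested, 1 was higher (*CXCL5*) and 0 lower with edgeR, and 4 were higher with DESeq2, while the median log2 fold change of the 9 was 0.98. In control cells TWEAK gave 4 higher chemokine genes and a median of 1.68. *CXCL5*, a neutrophil attractant, had 0.799, 1.20 and 0.688 CPM in untreated, 5.49, 5.18 and 8.22 CPM in TWEAK-treated control and 2.66, 1.88 and 2.95 CPM in KD cells (1.47 ± 0.28, adjusted p = 0.0342). *CXCL3* had a similar order of groups, with 1.60, 2.03 and 2.66 CPM in untreated and 5.94, 4.27 and 7.81 CPM in KD cells, and did not pass with edgeR (1.51 ± 0.33, adjusted p = 0.0698). *CXCL8* (1.13, adjusted p = 0.0520) and *CXCL2* (0.98, adjusted p = 0.133) did not pass either. The chemokine gene *CCL3*, outside this list, was also higher in the KD with edgeR (1.85 ± 0.35, adjusted p = 0.0361). It had 0.313, 0.553 and 0.313 CPM in untreated, 3.27, 3.88 and 4.22 CPM in TWEAK-treated control and 0.811, 1.85 and 1.64 CPM in KD cells.

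Of 17 other TNF receptor and ligand genes tested, 1 was higher (1 higher and 1 lower with DESeq2), against 0.409% of all genes tested with edgeR. This was *TNFRSF9*, the T-cell costimulatory receptor 4-1BB, with 1.35, 1.60 and 1.41 CPM in untreated and 4.54, 3.56 and 4.77 CPM in KD cells (1.56 ± 0.27, adjusted p = 0.0195). The TNF family ligand gene *CD70*, outside this list, was also higher with edgeR (0.91 ± 0.12, adjusted p = 0.0045). It had 18.8, 17.5 and 18.3 CPM in untreated and 31.0, 40.8 and 30.9 CPM in KD cells. The interstitial collagenase gene *MMP1* was the 1 of 17 metalloproteinase and TIMP genes called, and rose from 4.79, 5.90 and 5.06 to 11.99, 9.14 and 8.81 CPM (0.92 ± 0.18, adjusted p = 0.0388). The AP-1 family gene *MAFF* rose from 21.0 ± 1.6 to 36.6 ± 1.9 CPM (adjusted p = 0.00450), as the 1 of 14 AP-1 genes called. *HLA-B* was the 1 of 17 genes of MHC class I presentation called (0.68 ± 0.14, adjusted p = 0.0462), and since class I genes are similar in sequence its value may include reads of related genes or miss shared reads. With DESeq2, 2 metalloproteinase and TIMP genes, 2 class I genes, 1 AP-1 gene and 2 SMAD and TGF-β genes were higher. *BMP6* was the 1 of 20 SMAD and TGF-β pathway genes called, from 2.36, 2.00 and 1.59 to 5.53, 6.53 and 3.59 CPM.

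**Figure D4:**
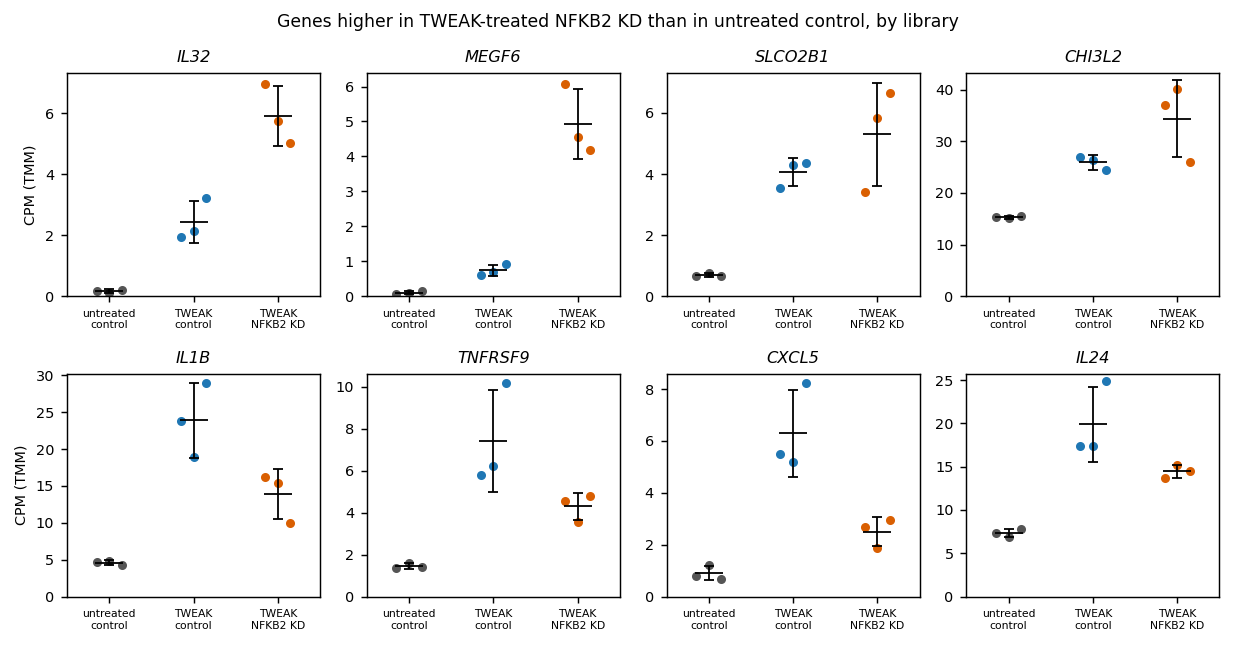
Level of 8 genes in CPM (TMM-scaled, linear axes from 0) in the same 3 groups, with 1 point per library and bars for the mean ± SD (n = 3). *IL32* and *MEGF6* are highest in TWEAK-treated *NFKB2* KD libraries, while *IL1B*, *TNFRSF9*, *CXCL5* and *IL24* have KD means between those of the untreated and the TWEAK-treated control libraries.

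The genes that fell did so by less than the top rises. Among those of at least 5 CPM in the higher group, the 11 protein-coding genes with the largest fall were *MEST*, *LUM*, *GPRC5C*, *FABP3*, *MAP2K6*, *PLPPR4*, *CILK1*, *TNIK*, *CDH7*, *KCNJ2* and *PDE5A*, with log2 fold changes from −1.37 to −0.90. *MEST*, an imprinted gene of the hydrolase family, had 48.6, 48.5 and 52.2 CPM in untreated, 14.4, 15.5 and 11.7 CPM in TWEAK-treated control and 15.4, 25.8 and 16.7 CPM in KD cells (−1.37 ± 0.20, adjusted p = 0.00588). KD replicate 2 was the nearest to the untreated libraries. The small extracellular matrix proteoglycan gene *LUM* had 8.96, 8.91 and 5.78 CPM in untreated and 3.53, 3.10 and 2.58 CPM in KD cells. *FABP3*, which encodes a fatty acid carrier, fell from 28.8 ± 3.5 to 12.1 ± 3.1 CPM, and *MAP2K6*, a kinase that activates p38, from 9.49 ± 1.4 to 4.43 ± 0.51 CPM (adjusted p = 0.00588). *TNIK*, a kinase of Wnt signalling, had 14.4, 14.4 and 14.3 CPM in untreated and 8.13, 6.07 and 7.48 CPM in KD cells (−0.99 ± 0.14, adjusted p = 0.00484). *CILK1*, a kinase of cilia, had a log2 fold change of −1.01 ± 0.18 in the KD and −0.53 ± 0.18 in TWEAK-treated control cells, and the direct difference of −0.49 ± 0.18 did not pass. None of these 11 genes was lower with an adjusted p under 0.05 when only the 6 libraries were fitted.

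Direct comparison of TWEAK-treated KD with TWEAK-treated control cells called 5 genes, *MEGF6* as higher and *NFKB2*, *TRAF1*, *NR5A2* and *G0S2* as lower. An unadjusted p under 0.05 was found in 660 of the 16879 genes tested, 345 higher and 315 lower, which are not taken as further differing genes. *MEGF6* and *NR5A2* fell outside the rule for named genes, as did *G0S2*, and were chosen after their values were seen. *MEGF6*, a gene with EGF-like domains (chr1:3487951-3611508, minus strand), had 2, 3 and 5 counts (0.0695, 0.0922 and 0.156 CPM) in untreated cells, 0.610, 0.697 and 0.916 CPM in TWEAK-treated control cells and 6.08, 4.54 and 4.20 CPM in KD cells. It was higher in the KD by 6.60-fold than in TWEAK-treated control cells (adjusted p = 0.00339), and by 5.48 ± 0.37 on the log2 scale than in untreated cells. *NR5A2*, a nuclear receptor gene, showed the opposite order, with 0.417, 0.277 and 0.375 CPM in untreated, 3.41, 3.09 and 6.496 CPM in TWEAK-treated control and 0.492, 0.354 and 0.699 CPM in KD cells. The KD values overlapped with the untreated values and were lower by 8.42-fold than those of TWEAK-treated control cells (adjusted p = 0.00889). *G0S2*, which encodes an inhibitor of the lipase ATGL, had 12.2 ± 0.20 CPM in untreated, 43.3 ± 3.9 CPM in TWEAK-treated control and 25.3 ± 1.4 CPM in KD cells. It was higher than in untreated cells (1.06 ± 0.11, adjusted p = 0.000902) and lower than in TWEAK-treated control cells (−0.77 ± 0.11, adjusted p = 0.0392). The calls of *NFKB2* and *MEGF6* held under all alternatives run, and that of *G0S2* was lost in 12 of them.

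Among protein-coding genes with a mean of at least 5 CPM in the higher group, the 8 with the largest rise by TWEAK in control cells were *BIRC3*, *TRAF1*, *TNIP3*, *CXCL5*, *CXCL3*, *IL1B*, *NFKB2* and *TNFRSF9*. In the KD their means were 28.4%, 23.6%, 54.9%, 39.7%, 49.2%, 58.1%, 31.4% and 57.9% of those in TWEAK-treated control cells. The KD passed the test against untreated cells for 5 of the 8, *TRAF1*, *CXCL3* and *NFKB2* being the others, and the direct difference from TWEAK-treated control cells passed for *TRAF1* and *NFKB2*. Since the 8 genes were chosen for high values in the TWEAK-treated control libraries, these percentages are a description. Among called protein-coding genes with a change of at least 1 on the log2 scale in the KD and a mean of at least 5 CPM in the higher group, those with the largest further change in the same direction relative to TWEAK-treated control cells were *IL32*, *CILK1*, *CHI3L2*, *SLCO2B1*, *LUM*, *GPRC5C*, *BDKRB1* and *PLPPR4*, and the difference passed in 0 of the 8 with edgeR, against 3 at an unadjusted p under 0.05 and 1 with DESeq2 (*IL32*, adjusted p = 0.000856). *MEGF6*, with a mean of 4.94 CPM, lay just under that limit, and its further change of 2.72 was larger than that of *IL32* (1.27) and passed. These 8 genes were chosen by the size of the same difference that was then tested, so their counts and p-values are a description too. *CHI3L2*, which encodes a chitinase-like protein, had 15.2, 15.1 and 15.6 CPM in untreated, 27.0, 26.3 and 24.4 CPM in TWEAK-treated control and 37.0, 40.1 and 26.0 CPM in KD cells.

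Gene groups outside inflammatory signalling held few or no calls. Over all genes tested, 0.409% were called higher and 0.196% lower. At these shares, 0 calls in a list of at most 50 genes does not set it apart from all genes. In 16 of the 25 lists 0 members were called with edgeR in either direction, among them the ETS family, mesenchymal genes, plasminogen activators, the BCL2 family, interferon-stimulated genes, cell cycle and DNA replication, collagens and laminins, integrins, p53 targets, cholesterol synthesis, hypoxia and glycolysis, IL6 family signalling, and the unfolded protein, ATF4 and aminoacyl-tRNA synthetase groups. The lists do not hold every gene of a kind. The integrin gene *ITGAM*, outside the integrin list, was called higher in the KD with edgeR (5.98 ± 0.50, adjusted p = 0.000133). It had 0.0348, 0.0307 and 0 CPM in untreated and 1.33, 1.52 and 1.92 CPM in KD cells. Of the 401 tested entries in these 16 lists, 37 were higher and 22 lower at an unadjusted p under 0.05, and DESeq2 called 17. Of all 16879 genes tested, 702 were higher and 743 lower at an unadjusted p under 0.05. List medians lay between −0.16 (24 hypoxia and glycolysis genes, of which 4 were lower at an unadjusted p under 0.05) and 0.26 (the NF-κB subunits). The 50 cell cycle and DNA replication genes had a median of 0.16 in the KD, with 5 higher at an unadjusted p under 0.05, and of 0.26 with TWEAK in control cells, where 3 were called. The 24 genes of the IRE1, XBP1 and ATF6 branches had a median of −0.06, and 0 passed even unadjusted. *VIM* had a mean of 9294 CPM in untreated cells before TMM scaling and of 12550 in KD cells, and did not pass (0.44, adjusted p = 0.103).

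**Figure D5:**
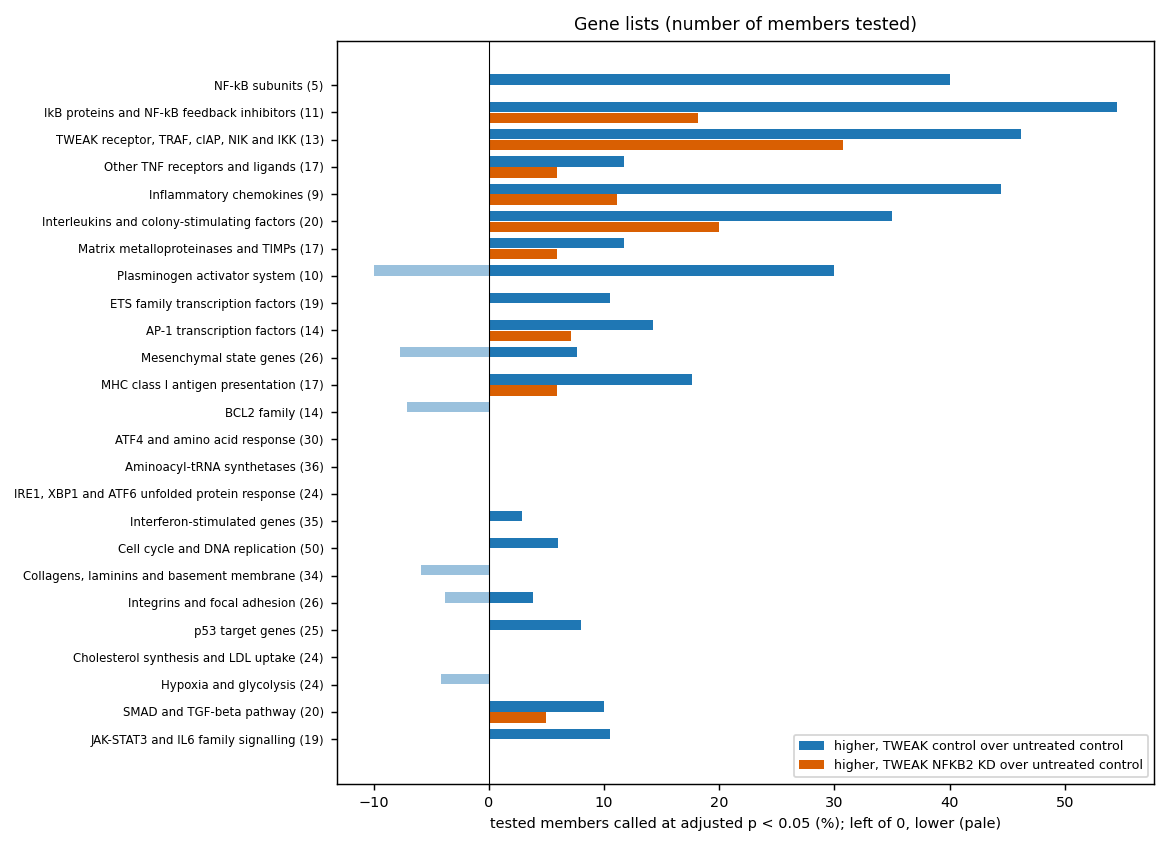
Share of the tested members of each of 25 gene lists (number tested in brackets) called at an adjusted p under 0.05 in TWEAK-treated *NFKB2* KD cells (orange) and in TWEAK-treated control cells (blue), each against untreated control cells, with higher genes to the right of 0 and lower genes, in a pale shade, to the left. The orange bars stop at 4 of 13 members, in the TWEAK receptor, TRAF, cIAP, NIK and IKK list, and none extends to the left.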

How the data were processed

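RNA-seq libraries were made from polyA RNA of 12 U-87 MG samples in 4 groups of 3 replicates, grouped from the sample labels. The table deposited by the authors holds raw counts per gene, from featureCounts, after adapter trimming (Trimmomatic) and alignment by STAR to the hg38 genome. Tool versions, annotation release and strand setting are not given in the sources used here. Without the strand setting, reads of overlapping antisense genes cannot be assigned. How reads shared by near-identical genes were counted is not stated in the paper. The paper describes the samples as biological replicates.

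Symbols and start sites came from GENCODE 44. Genes were kept with filterByExpr and tested with edgeR 4.0.16 (R 4.3.3), using TMM factors and the quasi-likelihood F-test over 12 libraries in 4 groups with 8 residual degrees of freedom. The third group of treated cells, *ETS1* KD, entered the expression filter, the TMM factors and the estimate of the spread, but none of the comparisons. P-values were adjusted by Benjamini-Hochberg over 16879 genes. SEs are those of log2 fold changes. The fit was tested on simulated data. DESeq2 1.42.0, which the paper names, was an alternative, beside RLE factors, other filters, 6 libraries, a replicate block, corrections for GC content and exonic length, the study's thresholds, and leaving out libraries. The count depth of 28384201 to 40192606 reads per library limits precision for genes of few counts, and floors and intervals cover counting error only.

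For ChIP-seq, the authors mapped reads with Bowtie2 and called peaks with MACS2 after subtraction of input, and deposited 1 list per library. Only peak positions and summits were used, with the fold enrichment ratio deposited by the authors read to rank summits. Read depth is unknown. Sites with peaks overlapping by at least 1 bp in both replicates were compared with annotated start sites, including starts inside a gene. The κB consensus was searched on both strands. Intervals are exact (Clopper-Pearson, 95%). Overlaps were computed with Python 3.11.15.

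Genes were named by rule: the pathway lists, *ETS1* and *ERN1*; the 12 protein-coding genes with the largest rise and the 12 with the largest fall among called genes of at least 5 CPM in the higher group with groups that did not overlap; up to 4 called members per list, plus up to 2 called between KD and TWEAK control; the 8 protein-coding genes TWEAK raised most in control cells; and the 8 called protein-coding genes (log2 change of at least 1) with the largest further change against TWEAK control, both also among genes of at least 5 CPM in the higher group. Of the 12 genes with the largest fall, 11 are given, and the remaining one is not reported here. Gene lists and comparisons were chosen with earlier results of these data known.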

Additional observations from a re-analysis of the deposited data

Results flagged for a closer look

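The difference between TWEAK-treated *NFKB2* KD and TWEAK-treated control cells passed the test for 5 genes, so their changes relative to untreated cells differed between the 2 lines (edgeR, 3 against 3 libraries, no overlap in any of the 5). Over all 16879 genes tested, 514 had higher and 645 had lower KD values without overlap. *NFKB2* differed by −1.67 on the log2 scale (adjusted p = 0.00339), *TRAF1* by −2.08 (adjusted p = 0.0392), *NR5A2* by −3.07 (adjusted p = 0.00889), *G0S2* by −0.77 (adjusted p = 0.0392) and *MEGF6* by 2.72 (adjusted p = 0.00339). The values of *TRAF1*, *NR5A2* and *G0S2* kept their direction in all alternative fits, with ranges of −2.31 to −1.66, −3.33 to −2.63 and −0.83 to −0.71, and lost the threshold in some. *NFKB2* was the gene targeted in the KD cells. Without untreated KD libraries, a difference present before TWEAK and a difference in response cannot be told apart.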

How the results depend on the processing

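Counts of genes at an adjusted p under 0.05 are given as higher and lower genes. For the KD against untreated control cells (69 and 33), they were 72 and 30 with RLE factors, 73 and 34 with the stricter filter, 84 and 38 with the replicate block, 172 and 136 with DESeq2, 136 and 92 with the GC and length correction, 213 and 156 with that correction and the replicate block, 158 and 120 without filter, 18 and 0 with 6 libraries, and 341 and 330 by the study's unadjusted thresholds. Of the 278 genes called without filter, 2 had not passed the filter. Leaving out 1 replicate gave 32 to 97 higher and 5 to 149 lower genes, and leaving out untreated replicate 3 and KD replicate 2, chosen after seeing the data, 108 and 143. For TWEAK in control cells (261 and 259), they were 431 and 509 with DESeq2, 505 and 543 with the GC and length correction, 739 and 773 with the block added, 350 and 509 without filter, 557 and 640 by the study's thresholds, and 110 to 236 and 61 to 169 when 1 replicate was left out. For the KD against TWEAK control (1 and 4), they were 10 and 26, 3 and 6, 5 and 12, 54 and 33, and 212 and 167 under the same 5 settings, 1 and 1 with 6 libraries, 1 and 2 with the stricter filter, and 1 to 2 and 1 to 3 when 1 replicate was left out. The cause of these differences was not tested.

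Same-numbered KD and untreated libraries correlated by 0.329, −0.22 and 0.071 in their deviations from group means, so the numbers were not taken as pairs, and the values with the replicate block are given only here. KD replicates 1 to 3 correlated best with untreated replicates 1, 3 and 3. Of the 39 named genes called in the KD, 6 kept the call in all fits (*BIRC3*, *IL32*, *SLCO2B1*, *CTSS*, *G0S2* and *MEGF6*), 31 lost it with 6 libraries and 2 to 21 when 1 replicate was left out, and none changed direction.

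Genes near 0 changed sign. *CYLD* had 0.02 with the GC and length correction (0.0163, or 0.0177 with the block). *N4BP1* had 0.0133 with 6 libraries, 0.000666 with DESeq2, 0.000655 with RLE factors and 0.0123 with the stricter filter. *TRAF5* had −0.00279 with the replicate block, and *IKBKG* −0.00949 with the correction and −0.0108 with the block added. Leaving out replicates gave −0.24 to 0.10 for *CHUK*, −0.0909 to 0.13 for *CYLD*, −0.0023 to 0.13 for *IKBKG*, −0.13 to 0.21 for *N4BP1*, −0.15 to 0.43 for *REL*, −0.46 to 0.0501 for *TNFSF12*, −0.16 to 0.17 for *TRAF5* and −0.0025 to 0.26 for *TRAF6*.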

Other observations

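KD replicate 2 lay near the untreated libraries for some genes that TWEAK changed in control cells, chosen here after their values were seen. *CHI3L1*, a gene of the mesenchymal state, had 269.3, 263.3 and 304.6 CPM in untreated, 56.3, 70.0 and 55.6 CPM in TWEAK-treated control and 86.0, 385.4 and 72.7 CPM in KD replicates 1 to 3. *SERPINB2*, which encodes plasminogen activator inhibitor 2, had 4.48 to 4.72 CPM in untreated cells and 18.1, 4.46 and 13.6 CPM in the KD. The integrin gene *ITGA2* had 67.0 to 75.5 CPM in untreated cells and 147.6, 83.6 and 132.3 CPM in the KD. Other genes did not follow this pattern, since replicate 2 was the highest KD library for *IL34* (5.44 CPM) and *NFKBIE* (23.9 CPM). *NFKB2* itself had 92.6 CPM in replicate 2, between the 75.6 and 104.9 CPM of the other KD libraries.

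The basement membrane genes *COL15A1* and *LAMA4*, also chosen after their values were seen, were lower with TWEAK in control cells and did not pass the test in the KD. *COL15A1* had 3.54, 4.09 and 4.88 CPM in untreated, 1.79, 1.89 and 1.33 CPM in TWEAK-treated control and 3.42, 4.24 and 2.80 CPM in KD cells, and the direct difference of 1.06 had an adjusted p of 0.296. *LAMA4* had 19.9, 18.4 and 19.9 CPM in untreated, 9.15, 10.8 and 9.80 CPM in TWEAK-treated control and 12.9, 15.1 and 12.5 CPM in KD cells, with a direct difference of 0.45 (adjusted p = 0.684). Of the 34 genes in that list, 0 were called against untreated cells in the KD with edgeR, against 3 higher and 3 lower at an unadjusted p under 0.05 and 1 with DESeq2.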
